A study of Triticum aestivum with 9 samples.

Results

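The comparison of DTT with untreated leaves asks how the wheat leaf transcriptome differs after a chemical that disturbs protein folding in the endoplasmic reticulum (ER). It covers the 78030 genes, of 130542 in the series, with a mean FPKM of at least 0.1 over all libraries, and 6 of the 9 libraries of the series. FPKM is a fragment number divided by the length of the transcript and by the size of the library. The leaves came from seedlings of the wheat cultivar Yunong211 after 2 days in nutrient solution, either with no chemical added (control, C) or with 7.5 mM DTT (D). Each group had 3 biological replicates. The bile acid TUDCA serves to relieve misfolding and was given at 25 μg/mL, on top of 7.5 mM DTT, to a further group (T). The T libraries were scaled with the others and counted in the mean FPKM that selected genes and set the expression classes below. Some tested genes therefore had a mean of 0 in both C and D. In the fit of D against C, T counted only through the estimate of the spread. Without T replicate 2 in that estimate there were 7063 DEGs (defined below) instead of 6255. Bulk leaf RNA was sequenced, so fewer cells of a type and less RNA per cell cannot be told apart.

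DTT is a reducing agent that keeps newly made secretory proteins from forming disulfide bonds. Unfolded proteins then gather in the ER and start the unfolded protein response, in which the transcription factor bZIP60 and the chaperone BiP take part. A leaf devotes much of its messenger RNA to the photosynthetic apparatus, and it can also take apart proteins, lipids and nucleic acids and export their nitrogen as amino acids such as asparagine.

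The control libraries held 18358389 to 26747793 fragments on genes and the DTT libraries 18664401 to 22243134. The FPKM of each library was divided by a factor of 0.861 to 1.096, the median ratio over 54436 genes, and the values below are these scaled FPKM. A differentially expressed gene (DEG) was called, with the thresholds of the study, where the unadjusted P-value was under 0.01 and the log2 fold change was 1 or more in size, by limma on log2(scaled FPKM + 0.1). P-values adjusted by Benjamini-Hochberg over all genes tested are given beside them. With 0.1 added, changes of genes with little expression are understated, and the fitted change of a gene with no fragment in a group depends on the 0.1. The gene lists below were drawn by the study from DEGs of these same libraries, so a list's count or direction is a description and no independent evidence. As leaf markers, the genes listed for photosystem I summed to 17460 to 27150 scaled FPKM in the control libraries and 7910 to 9408 in the DTT libraries, and those of the oxygen evolving complex to 9661 to 13190 and 4568 to 4754.

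Among the 78030 genes, 3328 were up-regulated DEGs (4.27%) and 2927 were down-regulated DEGs (3.75%), together 8.02%. Of the 6255 DEGs, 5273 also had an adjusted P-value under 0.05 (6.76% of the tested genes). Without the limit on fold change, 9.04% passed an adjusted P-value of 0.05, 4.67% up and 4.37% down, and in 33.8% of the tested genes the control and DTT libraries did not overlap. The rises were the larger changes. Their median absolute log2 fold change was 1.81 against 1.59 for the falls, 629 rises but 218 falls reached 3, and 135 rises but 12 falls reached 5. Low control levels were common among the rises, and 707 of the 3328 up-regulated DEGs had at most 3 fragments in every control library. At the other end, 326 of the 2927 down-regulated DEGs had at most 3 fragments in every DTT library. The share of DEGs that rose was 53.2%, and with the FPKM as deposited it was 72.2%, with a median log2 fold change over all genes of 0.218 instead of -0.009.

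The direction of the changes differed with the expression level. Among the 1751 genes with a mean FPKM over 60, 265 were down-regulated (15.1%) and 119 up-regulated (6.8%), and their median log2 fold change was -0.137 against -0.009 over all genes tested. Between 15 and 60 FPKM, 6.24% of the genes rose and 5.17% fell. Below 15 FPKM the shares lay between 3.59% and 4.48% for rises and between 3.12% and 3.52% for falls, near the background. Summed over the genes above 60, the mean scaled FPKM was 498166 in C and 326693 in D, whereas the sum over the genes between 3 and 15 was 180188 and 178525. The 265 falls above 60 became 180 with the FPKM as deposited and 135 after quantile normalization. They ranged from 221 without C replicate 2 to 281 without C replicate 1. Over all genes tested, the FPKM as deposited gave 4905 rises and 1890 falls instead of 3328 and 2927. The rises above 60 under these alternatives are not given here, so the excess of falls over rises is shown for the main scaling only.

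**Figure D1:**
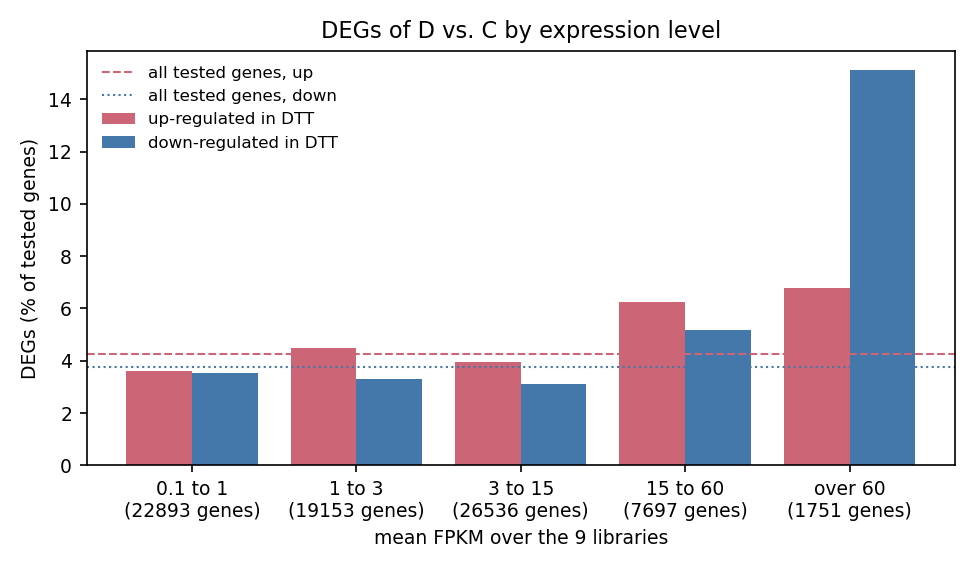
Share of tested genes (%, y axis) that were up-regulated or down-regulated DEGs of D vs. C, in 5 classes of mean FPKM over the 9 libraries (x axis). The lines are the shares over all tested genes, 4.27% up and 3.75% down. The bar for falls above FPKM 60 reaches 15.1%.

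The most abundant transcripts held a smaller share of the FPKM in each DTT library than in any control library. The 100 genes with most FPKM in a library held 24.1%, 29.4% and 24.8% of its summed FPKM in the 3 control libraries and 16.2%, 15.9% and 16.1% in the 3 DTT libraries. The difference of the means was -10.04 percentage points (two-sided exact permutation test, p = 0.1, adjusted p = 0.133 over 12 shares). With 3 libraries in each group no smaller p than 0.1 can be reached. For the 100 genes with the highest mean over all 9 libraries, 57 were down-regulated DEGs and 2 up-regulated, with a median log2 fold change of -1.13. C replicate 2 had the largest share of such transcripts among all 6 libraries.

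Of the 10 DEGs that lost most FPKM, 2 are annotated with carbonate dehydratase activity, 2 with photosynthesis and 1 with metal ion binding, and 5 have no annotation in the tables used. Traes_3AL_4F4132490, annotated with carbonate dehydratase activity (carbonic anhydrase, which interconverts carbon dioxide and bicarbonate), was at 4703, 8194 and 4134 scaled FPKM in C and at 1022, 1403 and 1147 in D. Its log2 fold change was -2.2 (SE 0.34, limma, adjusted P = 0.0034). TRAES3BF026200060CFD_g, with the same annotation, was at 3429, 5747 and 3196 in C and at 660, 917 and 755 in D. The photosystem I reaction center gene Traes_1AL_C42DE440F ranged from 4441 to 7390 in C and was at 2413, 2006 and 2685 in D. In these 3 genes the groups did not overlap and C replicate 2 was the highest library. The call for Traes_1AL_C42DE440F depended on single libraries, since its log2 fold change of -1.2 became -0.97 without C replicate 2 and did not pass without D replicate 2, and after quantile normalization it was -0.01. Traes_5BL_29847C42C, which has no annotation in the tables used, lost most and went from a mean of 6886 ± 1064 (SD, n = 3) to 1858 ± 274.

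The DEG that gained most was an asparagine synthase, the enzyme that moves amide nitrogen from glutamine to aspartate. Traes_5AL_4210A8A6E was at 262, 56.9 and 273 in C and at 1877, 1167 and 2339 in D, a log2 fold change of 3.43 (SE 0.58, limma, adjusted P = 0.0056). With each library left out in turn it was 2.69 to 3.82, lowest without C replicate 2. Its control libraries were uneven, with C replicate 2 the lowest, and each DTT library was over all of them. The transcript Novel09519, which the authors added to the annotation (chromosome 6D, 174729216 to 174730263, plus strand, release of the genome not named), was at 203, 183 and 156 in C and at 924, 980 and 1543 in D. It carries no gene name in the tables used. TRAES3BF088400020CFD_g, also without annotation, went from 61.3 ± 2.72 (SD, n = 3) to 874 ± 208. Traes_6DL_42DF4F0A4 and Novel17043, both listed under response to water, were also among the 10 that gained most, with means of 6.82 and 136 in C and 334 and 518 in D.

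**Figure D2:**
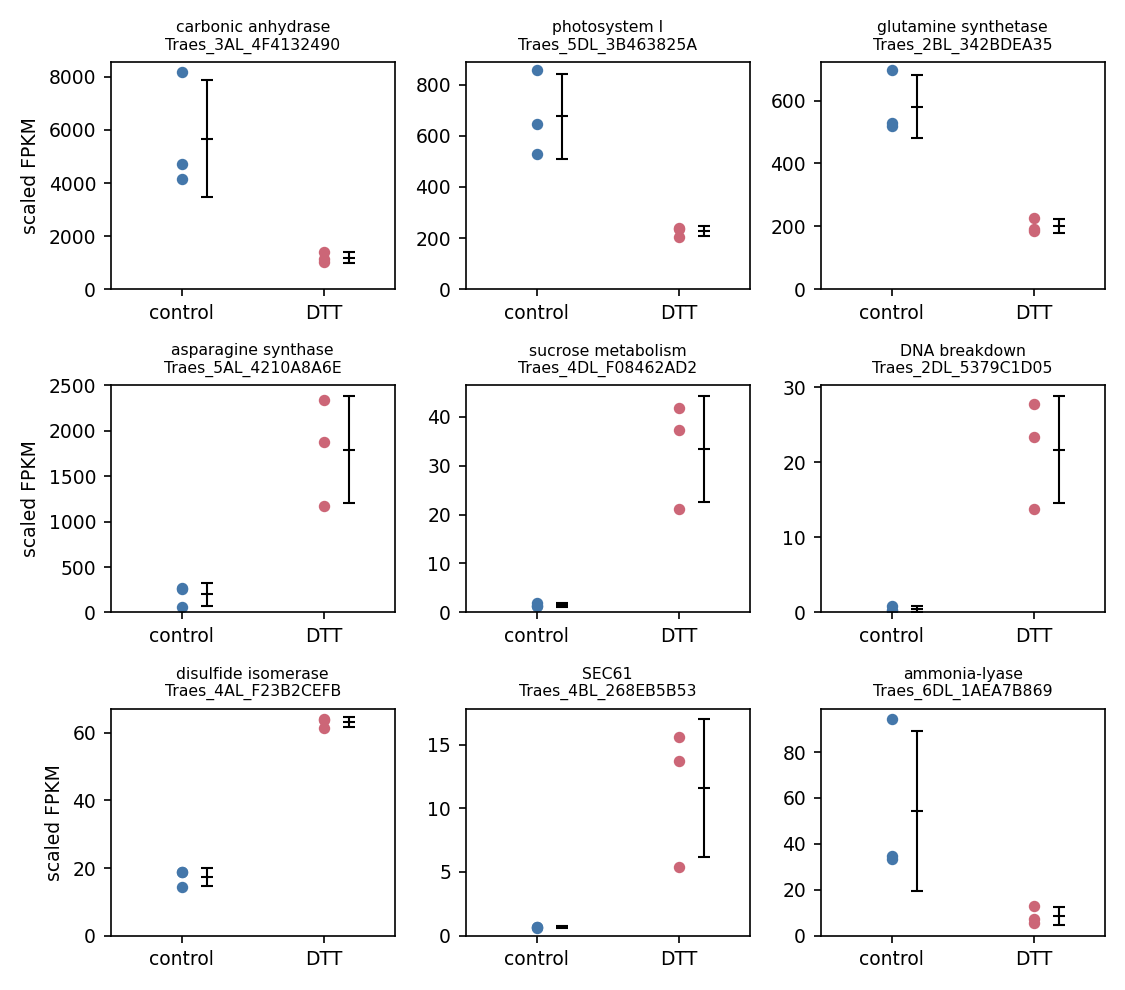
Scaled FPKM (y axis, from 0) of 9 genes in each control and DTT library. Points are libraries and the bars beside them are the mean ± SD of 3. In all 9 genes the points of the groups do not overlap, as for the asparagine synthase at 56.9 to 273 in C and 1167 to 2339 in D. No overlap was a condition for naming members of the larger lists, so it is partly set by the choice of genes.

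Most genes listed for photosynthesis and chlorophyll formation were lower in D. Of the 20 genes listed for photosystem I, which passes electrons on to ferredoxin, 16 fell and 3 rose, with a median log2 fold change of -1.23, or -0.41 after quantile normalization. Traes_5DL_3B463825A was at 645, 855 and 529 in C and at 235, 204 and 240.4 in D, a log2 fold change of -1.55 (SE 0.2, limma, adjusted P = 0.0015). The groups did not overlap, as the rule for naming required, and the control libraries were spread more widely than the DTT libraries. The risen Traes_3AL_3445B0339 was far less abundant, with a mean of 2.65 in C and 5.72 in D. For the oxygen evolving complex, which splits water at photosystem II, 18 of 24 fell and 4 rose. The largest fall, Traes_6DL_C160E8CEF, went from 11.9, 22 and 13.9 to 4.18, 4.5 and 3.19. The largest rise was Traes_2BL_CF3CFE8FE, which had no more than 3 fragments in any control library and was at 60.1, 21.9 and 34.2 in D, at least 95.2-fold higher by group means. Counts of falls depended on scaling. With the FPKM as deposited 10 photosystem I genes and 8 oxygen evolving complex genes were down-regulated DEGs, and after quantile normalization 4 and 12. The numbers of genes lower in D were unchanged by both for these 2 lists, at 16 and 19.

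Glutamyl-tRNA reductase, which makes the first committed step of chlorophyll synthesis, gave the most even list of the chloroplast. All 7 listed genes were lower in D and 6 were DEGs, with a median log2 fold change of -1.5. Traes_1DS_B73475505 was at 52.9, 100.7 and 44.4 in C and at 17, 10.2 and 8.97 in D, and Traes_1AS_AEED1F1D7, on the same arm of the A genome, was at 51.3, 99.2 and 44.5 in C and at 19.4, 9.76 and 9.45 in D. The highest library was C replicate 2 in both. Both also carry an annotation for lysine synthesis and stand in the list for the pentose-phosphate shunt. Reads of homoeologs (the copies of a gene in the 3 subgenomes) may be shared between them, and how they were divided is not given in the sources used here. Of the 11 genes listed for chlorophyllase, which removes the phytol tail of chlorophyll, 5 rose and 2 fell. Traes_4AS_C10CD24DD rose from 0.0755, 0.175 and 0.0819 to 0.985, 1.49 and 3.29, and Traes_5AL_CE646C4CA fell from 4.37, 8.15 and 6.58 to 1.01, 0.793 and 0.756.

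The carbonic anhydrase list was divided. Of its 11 genes, 8 fell and 3 rose, with a median log2 fold change of -1.98, and as a sum the list went from 7615 to 14440 in C to 2266 to 2826 in D. Traes_7DL_B228E9EA8 fell most, from 14.7, 13.5 and 7.39 to 0.885, 1.91 and 1.37, a log2 fold change of -3.01 (SE 0.44, limma, adjusted P = 0.0026). Traes_5AL_6FB526190 rose from 98.6, 77.1 and 48.8 to 309.6, 239 and 361, a log2 fold change of 2.06 (SE 0.32, limma, adjusted P = 0.004). The 3 that rose, Traes_5AL_6FB526190, Traes_5BL_0C2E9CD85 and Traes_5DL_CA09C31F9, lie 1 each on the long arms of 5A, 5B and 5D, and that of 5B also carries an annotation for putrescine synthesis. The median was -1.34 after quantile normalization.

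Genes listed for glutamate-ammonia ligase fell, and most genes listed for asparagine synthase rose. All 6 genes listed for glutamate-ammonia ligase (glutamine synthetase, which joins ammonia to glutamate) were down-regulated, with a median log2 fold change of -1.56 and adjusted P-values under 0.05 throughout. Traes_2BL_342BDEA35 was at 527, 697 and 518 in C and at 192, 226 and 186 in D, a log2 fold change of -1.52 (SE 0.19, limma, adjusted P = 0.0012). Traes_2DL_62DA30872 went from 134, 183 and 156 to 47, 48.5 and 38.3. All 6 were called with each of the C and D libraries left out in turn.

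Of the 9 genes listed for asparagine synthase, 7 rose and 2 fell, with a median log2 fold change of 3.08, or 2.93 with the 3 genes at the floor in C set to their lower bounds. The floor here is 3 fragments in each library of a group. Traes_5BL_7E69810D5 was at 57.3, 28.6 and 60.9 in C and at 379.6, 267 and 443 in D. Traes_5DL_70E5AA8DF was at 40.9, 16.7 and 63.5 in C and at 420.4, 139 and 457 in D. The D replicate 2 was the lowest DTT library in both, and in Traes_5AL_4210A8A6E too. Traes_4AS_C19AB3A1A had no fragment in any control library and 4.66, 1.14 and 2.71 in D, at least 37.9-fold higher by group means. The falls, Traes_1AL_D6A532C66 and Traes_1BL_6401A85E7, also carry an annotation for argininosuccinate synthase, an enzyme of arginine synthesis, and had log2 fold changes of -1.04 and -1.06. Both fell short of the fold change limit without C replicate 3, and neither was called with the FPKM as deposited.

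Transaminase genes rose, and amino acid transport genes changed in both directions. All 13 genes listed for transaminases, which move amino groups between amino and keto acids, were up-regulated with adjusted P-values under 0.05, by a median log2 fold change of 1.82. Traes_7BL_8F226AC0C, annotated with aromatic amino acid breakdown, went from 3.06, 3.53 and 2.52 to 22.1, 18.2 and 30.2, a log2 fold change of 2.89 (SE 0.25, limma, adjusted P = 0.00018). Of the 17 tested genes listed for amino acid transport, 10 fell and 5 rose. Traes_2AL_219852336 fell from 3.37, 3.78 and 6.44 to 1.36, 0.617 and 1.04, and Traes_3AL_E95E3E278 rose from 0.208, 0.289 and 0.24 to 1.73, 2.31 and 4.1. With the FPKM as deposited 5 transport genes fell and 5 rose.

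Most genes listed for ammonia-lyases, such as phenylalanine ammonia-lyase at the entry to phenylpropanoids, were lower in D. Of the 9 genes listed, 8 were lower and 1 higher, and 6 fell and none rose as DEGs, with a median log2 fold change of -1.6. Most were little expressed, with a median of 0.41 for their mean FPKM, and 2 were at the floor in D. Summed, the list was at 42.2, 48.6 and 106 in C, most of it from the gene named next. Traes_6DL_1AEA7B869 was at 33.5, 34.9 and 94.5 in C and at 13.1, 7.36 and 5.69 in D, a log2 fold change of -2.53 (SE 0.43, limma, adjusted P = 0.0054). Its control libraries were spread widely, with C replicate 3 the highest, and the groups did not overlap. The list is mixed, and the next largest fall, Traes_2BS_94C42CB70, carries annotations for CTP and GTP synthesis.

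Sucrose genes were higher. Of the 12 tested genes listed for sucrose metabolism, all 12 were higher in D and 10 were DEGs, with a median log2 fold change of 1.92. Traes_4DL_F08462AD2 went from 1.38, 1.96 and 1.33 to 37.3, 21 and 41.7, a log2 fold change of 4.3 (SE 0.32, limma, adjusted P = 8.5e-05). The B genome gene Traes_4BL_B49C2A51C went from 1.03, 1.38 and 0.921 to 15.7, 13.5 and 27.4. Neither group overlapped the other in either gene, which the rule for naming required.

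Beta-fructofuranosidase (invertase, which cleaves sucrose into glucose and fructose) held some of the largest changes in both directions. Of 15 genes, 9 rose and 3 fell, with a median log2 fold change of 2.06, or 2.80 with genes at the floor set to their bounds. Traes_6AS_AC24F31A6 was at 0.247, 0.104 and 0.0325 in C and at 84.4, 46.5 and 67.8 in D, a log2 fold change of 8.25 (SE 0.53, limma, adjusted P = 5.3e-05). Traes_6DS_204661A07 was at 0.324, 0.22 and 0.117 in C and at 111.6, 72.3 and 96.2 in D. It was also among the 5 up-regulated DEGs with the smallest adjusted P-values (2.5e-05). In the opposite direction, Traes_5AL_173CCF772 was at 2.07, 4.05 and 3.27 in C and had no fragment in any DTT library, at least 9.72-fold lower by group means. Leaving out 1 library at a time kept the log2 fold changes of these 2 risen genes between 7.92 and 8.61 and between 7.96 and 8.45.

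Lipid breakdown and the glyoxylate cycle rose in part. All 3 genes listed for malate synthase, the glyoxylate cycle enzyme that joins acetyl units to glyoxylate, were up-regulated. Traes_2DL_DB4D97814 went from 5.32, 5.52 and 4.07 to 18.3, 19 and 22.7, a log2 fold change of 1.99 (SE 0.26, limma, adjusted P = 0.0015). Traes_2AL_BE5540B1E went from 3.25, 1.88 and 1.11 to 7.38, 15.1 and 12.6. Of 16 genes listed for triglyceride lipase, which frees fatty acids from storage fat, 8 rose and 3 fell, or 10 and 1 with the FPKM as deposited. The largest fall, Traes_3B_666EDE83A, was at 3.18, 1.71 and 3.6 in C and at 0.232, 0.179 and 0.177 in D.

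Most genes listed for nucleic acid breakdown rose. Of 15 genes listed for DNA breakdown, all 15 were higher in D and 12 were DEGs, with a median log2 fold change of 3.37, or 3.18 with the gene at the floor set to its bound. Traes_2DL_5379C1D05 was at 0.876, 0.139 and 0.288 in C and at 13.8, 23.4 and 27.8 in D, a log2 fold change of 5.54 (SE 0.56, limma, adjusted P = 0.00038). Of 11 genes listed for ribonuclease T2, which degrades RNA in the secretory pathway and vacuole, 8 rose and 2 fell. Traes_2DS_30775DCAD went from 11.5, 4.91 and 8.73 to 80.4, 49 and 55.7, and Traes_2DS_F467ADBE7, on the same arm, from 16.1, 10.5 and 11 to 83.8, 59.7 and 50.2. The largest fall was Traes_2AL_603644722, from 2.87, 2.94 and 2.47 to 0.159, 0.874 and 0.189.

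Most genes listed for cellulose synthase and for beta-galactosidase fell. Of 20 genes listed for cellulose synthase, which spins out the glucan chains of the wall, 16 fell and 3 rose, with a median log2 fold change of -1.97. Many were little expressed, with a median of 0.6 for their mean FPKM. At the floor were 6 in D and 2 in C, and with these at their bounds the median was -1.93. An adjusted P-value under 0.05 was reached by 13. The largest fall that met the rule for naming, TRAES3BF171700040CFD_g, went from 5.74, 6.12 and 4.9 to 0.598, 1.11 and 0.16, and it also carries annotations for small nucleolar RNA binding. Traes_2BS_F0846FCC2 rose from at most 0.0633 in C to 1.01, 1.23 and 1.08 in D, at least 21-fold by group means. Of 10 genes listed for beta-galactosidase, which trims galactose from wall polymers, 7 fell and 2 rose. Traes_7AL_71DF91125 fell from 27.7, 17.6 and 22.6 to 3.77, 5.75 and 1.85, and Traes_1DL_E2E9F90E4 rose from 0.942, 0.594 and 0.504 to 6.53, 8.94 and 6.63.

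Nucleosome genes, which package DNA, fell in 5 of 6 cases. Traes_1AL_BB4298457 went from 4.6, 4.64 and 2.72 to 0.395, 0.217 and 0.188, a log2 fold change of -3.48 (SE 0.5, limma, adjusted P = 0.0026), while Traes_2AL_7D28234D0 rose from 10.5, 9.01 and 8.73 to 23.6, 24.1 and 34.3. All 5 genes listed for the regulation of cyclin-dependent kinases, the motors of the cell cycle, were down-regulated, with a median log2 fold change of -1.46 and 3 adjusted P-values under 0.05, and 3 were called with the FPKM as deposited.

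**Figure D3:**
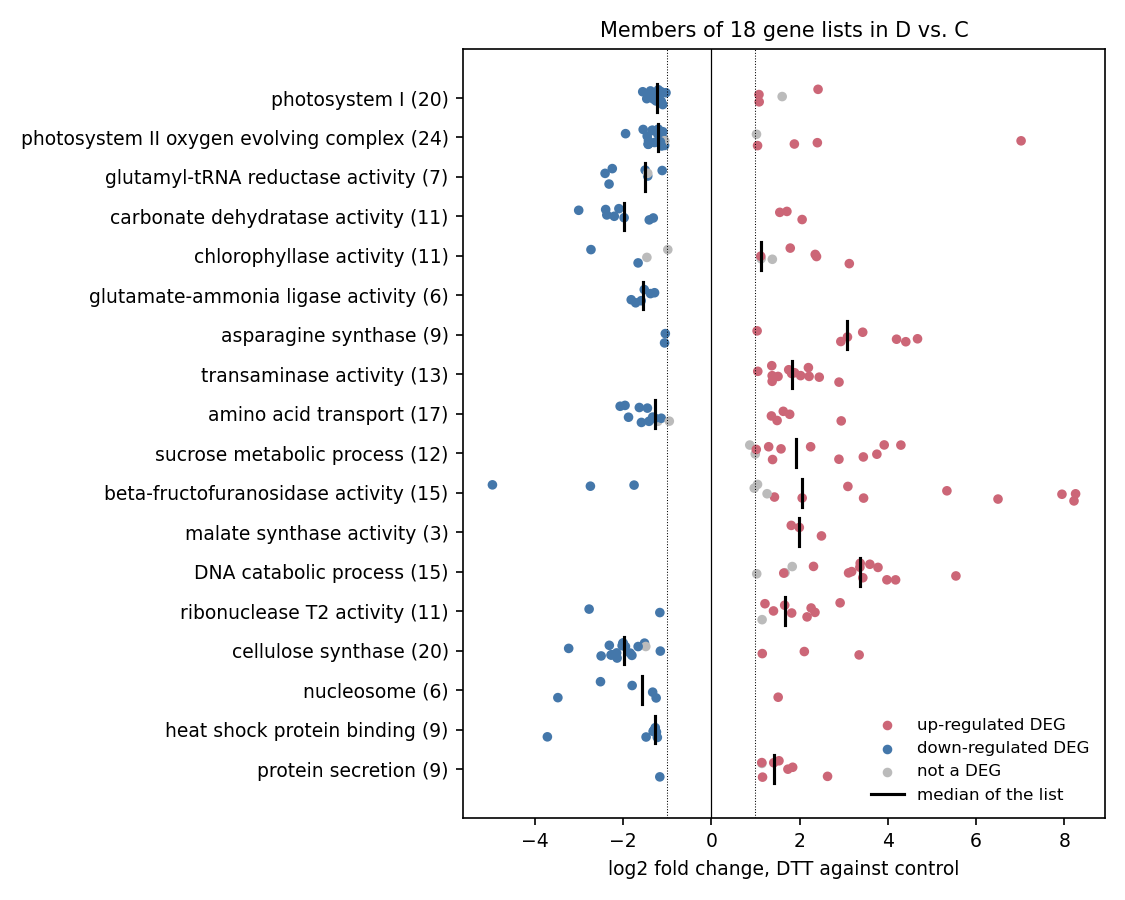
Log2 fold changes, DTT against control (x axis), of the tested members of 18 gene lists (y axis, number tested in brackets). Each point is a gene, coloured by its call, black bars are list medians and dotted lines mark -1 and 1. The members of all lists were drawn by the study from DEGs of these libraries, which leaves few points between the dotted lines.

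Of the 46 genes that the study listed for protein processing in the ER, 26 rose and 9 fell. With the FPKM as deposited 31 rose and 5 fell, and with limma-voom on the recovered fragments 21 rose and 9 fell. The rises included 4 of 5 Hsp70 and 3 of 3 Hsp40 genes, which code for chaperones and their partners. The falls included 2 of 2 RMA1 genes and the single Otu1 and P97 genes. P97 did not pass an adjusted P-value of 0.05 and was not called with the FPKM as deposited. Of 8 small heat shock genes 3 fell and 2 rose, and of 2 UbcH5 genes 1 fell and 1 rose. Among these 46, protein disulfide isomerases (PDIs, which form and rearrange disulfide bonds) numbered 6, of which 4 were up-regulated DEGs and all 6 higher in D. Of the 6 PDIs, 3 had an adjusted P-value under 0.05. Traes_4AL_F23B2CEFB was at 18.8, 18.8 and 14.3 in C and at 61.5, 63.9 and 64.1 in D, a log2 fold change of 1.87 (SE 0.32, limma, adjusted P = 0.0061). The PDI that the study names in its text, Traes_6AS_5896DC565, is not among the 6 and was at 5.23, 4.04 and 4.61 in C and at 3.11, 3.81 and 2.54 in D, with an adjusted P of 0.38. It was no DEG, and it was lower in D where the listed PDIs were higher.

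Translocation and export components had the highest medians among the classes of the pathway, 3.79 for SEC61 and 4.75 for SAR1. All 3 SEC61 genes, which code for the channel into the ER, and both SAR1 genes, which start the coat of vesicles leaving it, were up-regulated. With limma-voom on the recovered fragments 2 of the 3 SEC61 genes and 0 of the 2 SAR1 genes passed, and 1 instead of 2 of the 3 BiP genes. Traes_4BL_268EB5B53 (SEC61) was at 0.686, 0.605 and 0.715 in C and at 15.6, 13.7 and 5.42 in D. Traes_7AL_FDC2E2F77 (SAR1) had no fragment in any control library and 15.1, 10.4 and 2.03 in D, at least 68.5-fold higher by group means. Traes_2BL_44AF6C8FD, a BiP gene, had none either and was at 6.36, 3.28 and 0.387 in D, at least 14-fold higher by group means. BiP transcripts were not absent from control leaves, though 2 of the 3 listed BiP genes were at the floor in C. Summed, the 3 were at 15.1, 12.4 and 9.3 in C and at 41.4, 43.8 and 17.2 in D. D replicate 3 was the lowest DTT library in all of these, and in the bZIP60 gene Traes_7BL_625F55A12, which went from 4.34, 4.92 and 4.84 to 21.5, 22 and 11.6. GRP94, an ER chaperone of the Hsp90 family, fell from 10.3, 10.5 and 11.6 to 4.96, 5.68 and 5.35 in Traes_5BS_AB86BB5DE, a log2 fold change of -1.0 (SE 0.2, limma, adjusted P = 0.013). That value sits on the fold change limit and became -0.95 without C replicate 3 and without D replicate 1. With the FPKM as deposited it was -0.76 and the gene was not called.

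The files pair no gene name or position with these identifiers, so the quantitative PCR primers that the study designed for 3 of these genes are given to mark the transcripts meant, 5′ to 3′, all bases in lower case. The PCR itself was not analysed here.
Traes_4AL_F23B2CEFB (PDI), forward: ttgctgagaagctgcggtct
Traes_4AL_F23B2CEFB (PDI), reverse: ccaatggcctctccactgct
Traes_2BL_44AF6C8FD (BiP), forward: agctcaacgccgacctcttc
Traes_2BL_44AF6C8FD (BiP), reverse: gctgctgcaccttgggaatc
Traes_5BS_AB86BB5DE (GRP94), forward: gcttgtcgtccctcaagctg
Traes_5BS_AB86BB5DE (GRP94), reverse: aggtggcgcgtcagatgaat

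The 9 genes listed for heat shock protein binding were all down-regulated with adjusted P-values under 0.05, by a median log2 fold change of -1.28, and all 9 are also among the 24 listed for unfolded protein binding. Traes_1DS_C3F67FDFB was at 564, 812 and 648 in C and at 282, 265 and 255 in D. Traes_6AS_E5254BC5B fell most, from 28.1, 35.4 and 10.2 to 1.48, 1.7 and 1.51, a log2 fold change of -3.72 (SE 0.4, limma, adjusted P = 0.00058). Of the 23 tested genes listed for unfolded protein binding, 15 fell and 8 rose. One of the larger rises there, TRAES3BF019000220CFD_g, is named by the study as an ABA responsive element binding factor, which is a transcription factor. With the FPKM as deposited, 8 of this list fell and 8 rose. The list for protein secretion had 7 rises and 1 fall among 9 genes. Its largest rise, Traes_4BS_A7B66E010, went from 3.37, 6.54 and 4.63 to 35, 21.6 and 34.1, and its fall, TRAES3BF057900010CFD_g, from 383, 484 and 407 to 191, 192 and 182.

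Abscisic acid (ABA) signaling genes differed in direction between the receptors and the other 3 classes given here. All 5 listed ABA receptors of the PYR/PYL family were down-regulated, with a median log2 fold change of -3.95, while 24 of 25 PP2C phosphatases, 13 of 14 SnRK2 kinases and all 9 ABF transcription factors were up-regulated, with medians of 4.45, 2.27 and 2.18. The receptor Traes_4BL_E43C1BB11 went from 10.6, 12 and 9.03 to 0.443, 0.771 and 0.246. The ABF gene Traes_6AL_E8CD2C02B went from 8.58, 12 and 8.27 to 58.4, 42.3 and 65.2. The 4 tested A-type response regulators of cytokinin signaling all fell, with a median of -3.05. All 10 PR-1 genes, markers of the salicylic acid response, were lower and 8 were DEGs. The most abundant, Traes_7AS_FEE6CC75E1, was at 1248, 799.9 and 1227 in C and at 158, 444 and 83 in D, and it did not pass without C replicate 1 or 3 or without D replicate 1 or 3.

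The 450 tested transcription factors that the study listed held 172 up-regulated and 167 down-regulated genes, or 190 and 113 with the FPKM as deposited. Heat shock factors (HSF, 9 rose and 0 fell of 14), bZIP (22 and 5 of 29), NAC (24 and 6 of 39), homeobox (HB, 13 and 2 of 19 tested) and C2H2 zinc fingers (12 and 1 of 20) were mostly up-regulated. At the floor in C were 8 of the 14 HSF, 8 of the 20 C2H2 and 6 of the 19 HB genes. With these at their bounds, the median log2 fold change was 1.52 instead of 2.30 for HSF. It was 1.86 instead of 2.66 for HB and 1.09 instead of 1.20 for C2H2. CCAAT-binding factors (1 rose and 9 fell of 12) and the class named Orphans (9 and 21 of 31) were mostly down-regulated, and MYB had 12 rises and 21 falls among 44. AP2-EREBP (10 and 13 of 28), bHLH (14 and 13 of 30) and WRKY (4 and 3 of 18) had similar numbers in both directions. With the FPKM as deposited MYB had 12 rises and 14 falls, bHLH 15 and 8, CCAAT-binding factors 3 and 6, and NAC 26 and 3. The study drew these factors from its DEGs, and no family was tested against another.

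The HSF gene TRAES3BF025700030CFD_g had no fragment in any control library and was at 8.19, 6.82 and 17.1 in D, at least 56.1-fold higher by group means. The NAC gene Traes_7AL_BFBB2AD1E fell from 179.6, 139.6 and 150.3 to 51.6, 68.5 and 48.4. The bZIP gene Traes_5BS_B2CD001D1 fell from 133, 175 and 102 to 29.3, 21.6 and 16. In MYB, Traes_3AS_4DF357170 rose from 4.38, 2.09 and 2.36 to 81.4, 49.7 and 86.3, and Traes_1DL_70CCAB0EF fell from 39.3, 27.5 and 23.6 to 0.739, 1.14 and 0.986, log2 fold changes of 4.61 and -4.83 (SE 0.32 for both, limma, adjusted P = 6.8e-05 and 5.4e-05). The MYB family thus held large changes in both directions.

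DEGs lay on all 21 chromosomes. By subgenome, 4.05%, 4.29% and 4.47% of the tested genes of A, B and D rose, and 3.6%, 3.63% and 4.05% fell. By homoeologous group, the share that rose ranged from 3.9% in group 5 to 4.51% in group 4, and the share that fell from 3.29% in group 3 to 4.37% in group 2. Single chromosomes ranged from 3.44% (5A) to 5.4% (3B) up and from 2.31% (6B) to 4.63% (2D) down. Chromosome 3B is annotated differently from the rest, and its 3524 genes with 3B identifiers had 5.73% rises and 4.6% falls, against 4.46% and 4.25% over the 57684 genes with Traes identifiers. Transcripts added by the authors, 16571 of the tested genes, had 3.31% rises and 1.86% falls. No test was made of these differences, because neighbouring and homoeologous genes are not independent.

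Arms of the same group resembled each other in places. The short arms 5AS, 5BS and 5DS had 2.32%, 2.79% and 3.01% rises, all below the 4.27% of all genes, and fell in 4.29%, 3.68% and 4.62%. The short arms 2AS, 2BS and 2DS had 5.31%, 4.89% and 5.8% falls, which were the 3 highest of the 40 arms. The long arms of group 1 had 5.19%, 4.54% and 5.28% rises, above their short arms at 2.87%, 2.99% and 4.49%. The largest share of rises was that of 4DS (66 of 1126 genes, 5.86%), and the smallest share of falls that of 6BS (20 of 1111, 1.8%). The arm 1BS had only 469 tested genes.

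**Figure D4:**
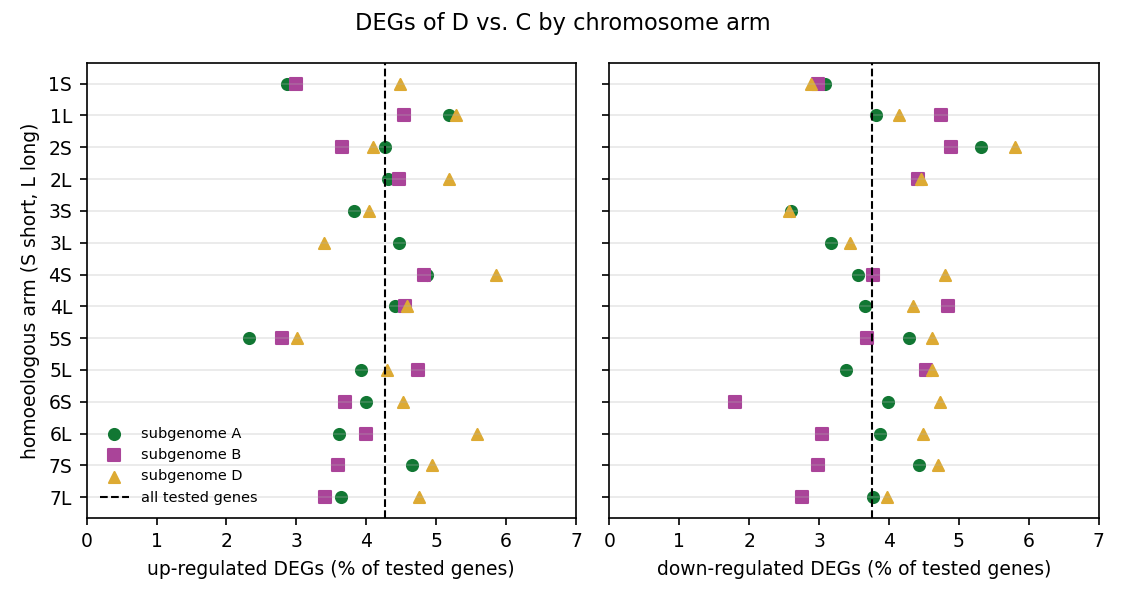
Share of the tested genes of each chromosome arm (x axis, %) that were up-regulated (left) or down-regulated (right) DEGs of D vs. C, by homoeologous arm (y axis). Symbols are the A, B and D subgenomes, and dashed lines are all tested genes. Chromosome 3B is missing because its identifiers name no arm. The 3 symbols of 2S lie furthest right among falls, and the 3 of 5S lie left among rises.

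The share of the summed FPKM held by a chromosome group differed for 5 of the 7 groups without overlap. Group 2 held 19.1%, 20.6% and 19.2% of the summed FPKM in C and 17.3%, 17% and 17.1% in D, and group 5 held 17.2%, 17.7% and 17.5% in C and 16.1%, 16.1% and 16.3% in D. Groups 1, 3 and 6 were higher in D, by 0.971, 1.49 and 0.973 percentage points. For these 5 groups the two-sided exact permutation test gave p = 0.1 (adjusted p = 0.133 over 12 shares). Without the 100 most abundant genes of each library, the change of group 2 was -0.349 points instead of -2.55, that of group 5 was 0.0583 instead of -1.3, and that of group 3 was -0.313 instead of 1.49. Transcripts added by the authors held 9.53%, 9.16% and 9.97% in C and 12.3%, 11.1% and 11.1% in D, and without the most abundant genes of each library the difference was 0.688 points (exact permutation test, p = 0.4).

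**Figure D5:**
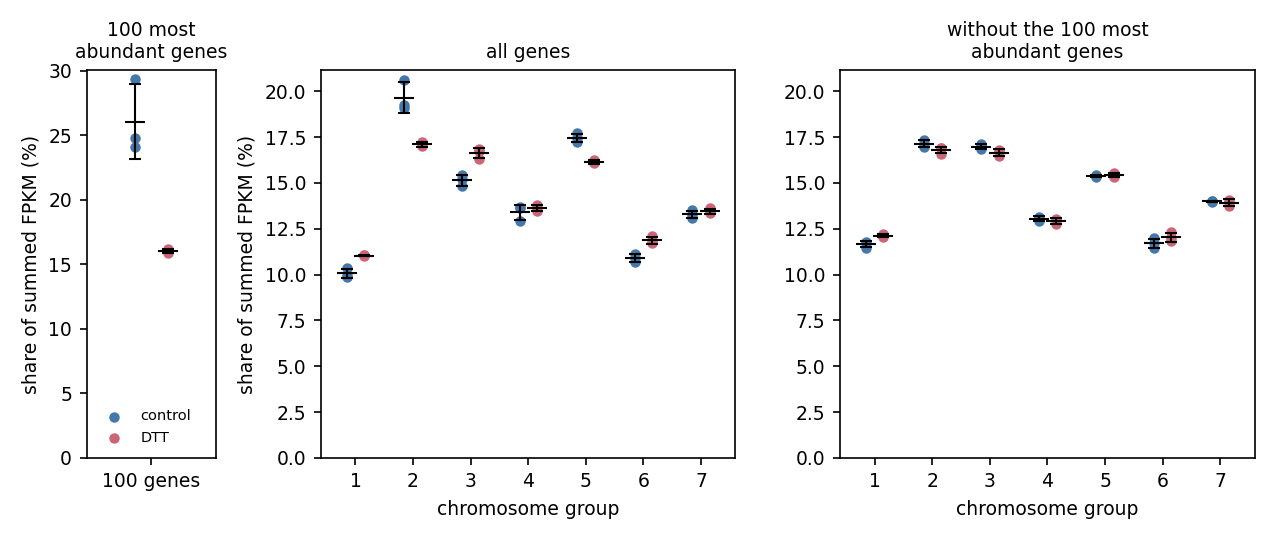
Share of the summed FPKM of a library (y axis, %, from 0) held by its 100 most abundant genes (left) and by the genes of chromosome groups 1 to 7, with all genes (middle) and without each library's 100 most abundant genes (right). Points are the 3 control and 3 DTT libraries, bars are mean ± SD. The gap in group 2, 19.7% against 17.1% with all genes, is 17.2% against 16.8% without them.

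The smallest adjusted P-values fell on genes outside the ER lists. Among the rises, Traes_2AL_0ADF02A1E had no fragment in any control library and was at 48.9, 25.7 and 60.8 in D, at least 123-fold higher by group means. Traes_5BL_F6A4A672F, annotated with transport ATPase activity, was at most 0.0912 in C and at 43.2, 27.5 and 61.8 in D. Novel07386 (chromosome 5B, 31275234 to 31276266, minus strand) was at most 0.115 in C and at 65.6, 60.6 and 131.9 in D. Among the falls, Traes_5BS_9584239E51 went from 18.2, 20.5 and 19.7 to 1.68, 1.39 and 1.47, and Traes_5DS_A92D3B63C from 12.5, 12.7 and 17.9 to 0.419, 0.308 and 0.267. Both are annotated with protein disulfide oxidoreductase activity and lie on short arms of group 5. Traes_2AS_744F6C927, annotated with nutrient reservoir activity, fell from 112, 217 and 97.9 to 4.91, 3.62 and 6.56, a log2 fold change of -4.74 (SE 0.34, limma, adjusted P = 6.9e-05).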

How the data were processed

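Leaf RNA of 3 control, 3 DTT and 3 DTT + TUDCA samples was sequenced as paired-end libraries. The authors removed low-quality reads, mapped the rest to the wheat genome (TopHat2 2.0.12 with Bowtie2 2.2.3, and HTSeq 0.6.1, per the submitters' processing notes) and deposited FPKM values for 130542 genes. The release of the genome and the use of strand are not given in the sources used here. FPKM reflects what 1 fragment is worth in each library, and whole fragment numbers were recovered for 100% of the genes above 0 (within 0.003 fragments). Their totals were 16328278 to 26747793 per library.

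FPKM was divided by median-ratio factors, and log2(scaled FPKM + 0.1) was fitted in limma 3.58.1 (R 4.3.3) with all 3 groups and variances that follow the mean, for genes whose mean FPKM was 0.1 or more. The authors' count test was not repeated, and limma-voom on the recovered fragments was tried as an alternative. The authors' fold changes and P-values in the supplements were not used. Limma P-values set the difference between D and C against the spread between the biological replicates, pooled over C, D and T. Shares of a library were compared with exact permutation tests in python 3.11.15. The fit was tested on simulated data with known changes.

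The gene lists are GO terms, pathway and family tables of the study (identifiers and names only), and the GO table was used in a copy with 1079 terms. Named genes were, in each list, up to 2 rises and 2 falls among DEGs with an adjusted P-value under 0.05, no overlap between libraries and a mean of at least 1, members of lists of at most 12, genes the study names, the 10 DEGs that gained or lost most FPKM and the 5 smallest adjusted P-values in each direction. The members and lists were chosen with earlier results of these data known. A table of 155467 RefSeq genes matched 0 identifiers. The alternatives tried were adding 0.01 or 1 instead of 0.1, a stricter (1) or absent minimum of the mean, FPKM as deposited, a quantile normalization, a replicate block, no variance trend, only C and D in the model, T replicate 2 or each C or D library left out, adjusted P-values, and limma-voom on the recovered fragments.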

Additional observations from a re-analysis of the deposited data

How the results depend on the processing

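With 1 added before the log2 there were 3728 DEGs (1934 up, 1794 down), and with the FPKM as deposited 6795, of which 1890 were down. Under each other alternative the count stayed within 1.5 times the 6255, with 6556 by limma-voom on the recovered fragments, 5273 with an adjusted P-value under 0.05, 6998 with only C and D in the model and 7063 without T replicate 2. With each C or D library left out it was 4992 to 6071 (2590 to 3242 up, 2309 to 2829 down), with the lowest total without D replicate 3. Adjusted P-values moved more. Without the limit on fold change, 7055 genes were under 0.05 in the main fit, 11111 without T replicate 2 and 10452 with only C and D. With each C or D library left out, 3656 to 5220 were. The counts of rises and of falls in the gene lists and their classes moved most with 1 added before the log2. There 55 of these counts left the range of 1.5 times the main count and 113 did not. With a minimum mean FPKM of 1, and with the FPKM as deposited, 32 did so. With 1 of the C or D libraries left out it was 13 (C replicate 1) to 25 (C replicate 2). Counting recovered fragments instead of FPKM turned the sign for subgenome B (-0.17 percentage points), subgenome D (0.37) and group 4 (-0.43), and leaving out the 100 most abundant genes of each library turned it for group 3 (-0.31), group 4 (-0.14), group 5 (0.06) and group 7 (-0.08). The cause was not tested. Of 377 genes considered for naming, only Novel12259 (0.14 without C replicate 3, -0.76 to 0.14 with each library left out) and Novel13869 (-0.44 without C replicate 1, -0.44 to 0.69) reversed under any alternative, and neither was a DEG. Replicate numbers did not pair the libraries, since the deviations of C and D with the same number correlated at -0.09, 0 and -0.09 over 55137 genes; with the replicate block 6245 genes were DEGs, and 5868 of these were DEGs in the same direction without it. Precision is limited by 3 libraries a group, and shares of a library cannot pass 0.05.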

Other observations

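Several further lists held members in both directions. Of 36 genes listed for ribosome biogenesis, 14 rose and 19 fell, but 16 rose and 10 fell with the FPKM as deposited. Traes_6DS_905702C89, at most 0.109 scaled FPKM in C, was at 47.4, 20.2 and 35.2 in D. Traes_6AS_73BB49D01, at most 0.0248 in C and at 36, 16.6 and 37.5 in D, is listed there too but also carries an annotation for beta-fructofuranosidase. Of 13 genes listed for trehalose metabolism, 7 rose and 5 fell, or 7 and 2 with the FPKM as deposited. The trehalase gene Traes_1DL_50B29C62B went from 0.122, 0.0706 and 0.044 to 1.09, 1.15 and 1.7, and Traes_5DL_7BF5AD398, annotated with trehalose synthesis, went from 71.3, 65.6 and 96.7 to 49.3, 25.7 and 23.2. Of 23 genes listed for the pentose-phosphate shunt, which makes NADPH, 14 fell and 6 rose, or 10 and 7 with the FPKM as deposited. Of 16 listed for iron transport 7 fell and 2 rose, or 2 and 2 with the FPKM as deposited.

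Of the 20 ER protein processing genes that the study listed only for its other comparisons, 10 were higher and 10 lower in D than in C, and 1, Traes_2AL_A6DF4B935, was a DEG here, with a mean of 0.0264 in C and 1.57 in D.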
